A study of Mus musculus with 7 samples.

Results

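Radial glia and astrocyte genes were followed in 2 populations of sorted embryonic mouse neurons. The set holds 10 genes chosen by symbol (Fabp7, Slc1a3, Vim, Nes, Sox9, Aldoc, Apoe, Dbi, Ttyh1 and Mt3), and each has 1 row among the 18335 rows of the deposited table. The names say where these genes are usually found and not which cells were in the libraries. The groups were Pomc neurons (4 libraries), whose Pomc product is cut into peptides that curb feeding, and Npy neurons (2 libraries used), whose peptide promotes it. Both came from dissociated arcuate nuclei of the hypothalamus at age E15.5 and were purified by fluorescence-activated cell sorting. No treatment or mutant allele is named. The sort reporter, strain and litters are not stated. Nothing shows that replicates came from separate animals, and p-values therefore cover only the spread among these libraries, which may be technical.

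Radial glia are the stem cells that line the ventricle of the embryonic brain. They divide to give neurons and, later, astrocytes and oligodendrocyte precursors, and in the hypothalamus some persist as tanycytes beside the ventricle. Their RNA is known for intermediate filaments, lipid carriers, the glutamate transporter GLAST and the transcription factor SOX9, many of which astrocytes keep. Neurons switch most of these genes off as they leave the ventricular zone. Vim, Dbi and Nes RNA can linger in young neurons, and several of the genes are also used by oligodendrocyte precursors, microglia or endothelium. In bulk libraries such as these, fewer cells of a type and less RNA per cell cannot be told apart.

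Values are TPM, which are scaled by gene length and to 1 total per library, so levels can be compared between genes. The column of Npy replicate 3 was left out because it is no measurement of its own: in all 15223 genes with a value it is a whole percent of the mean of the other Npy columns (within 1e-04 percentage points). Genes above 0 numbered 12493 to 14656 in the Pomc libraries and 14933 and 12922 in the Npy libraries. Short RNA genes took 9.36 to 12.01% of the Pomc libraries and 13.0 and 15.6% of the Npy libraries (two-sided exact permutation p = 0.0667, the smallest that 15 splits allow). Pomc and Npy went with the labels. Pomc stood at 352 to 770.3 TPM in its own libraries against 24.0 and 59.4 TPM, and Npy at 728 and 513 TPM in its own against 2.11 to 152 TPM. Agrp, also listed beforehand as a marker of Npy neurons, was low and did not separate the groups. It stood at 0 to 6.82 TPM in Pomc neurons against 5.53 and 1.75 TPM in Npy neurons (two-sided exact permutation p = 0.667).

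No radial glia or astrocyte gene of the 10 passed the test between Pomc and Npy neurons, and their values went both ways. Fabp7, Nes and Aldoc had both Npy values above the whole Pomc range. Vim and Apoe had the opposite sign, with higher Pomc means and overlapping groups. The remaining 5 overlapped as well. All 10 reached 1 TPM in 2 or more libraries, the minimum for testing. By limma on log2(TPM + 1) over 13845 genes, 0 of 10 had an adjusted p (Benjamini-Hochberg) under 0.05, where 0.412% of all tested genes were called (0.289% higher in Pomc and 0.123% higher in Npy). At an unadjusted p under 0.05 there were 3 of 10 (Fabp7, Nes and Aldoc, all higher in Npy), against 7.36% of all genes in either direction and 3.28% higher in Npy. Groups without overlap were found in the same 3 genes, as in 15.9% of all tested genes (7.86% with Npy higher and 8.05% with Pomc higher). Of the fitted log2 fold changes, Pomc minus Npy, 7 were below 0 and 3 above, with a median of -0.73 against 0.02 over all tested genes.

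**Figure D1:**
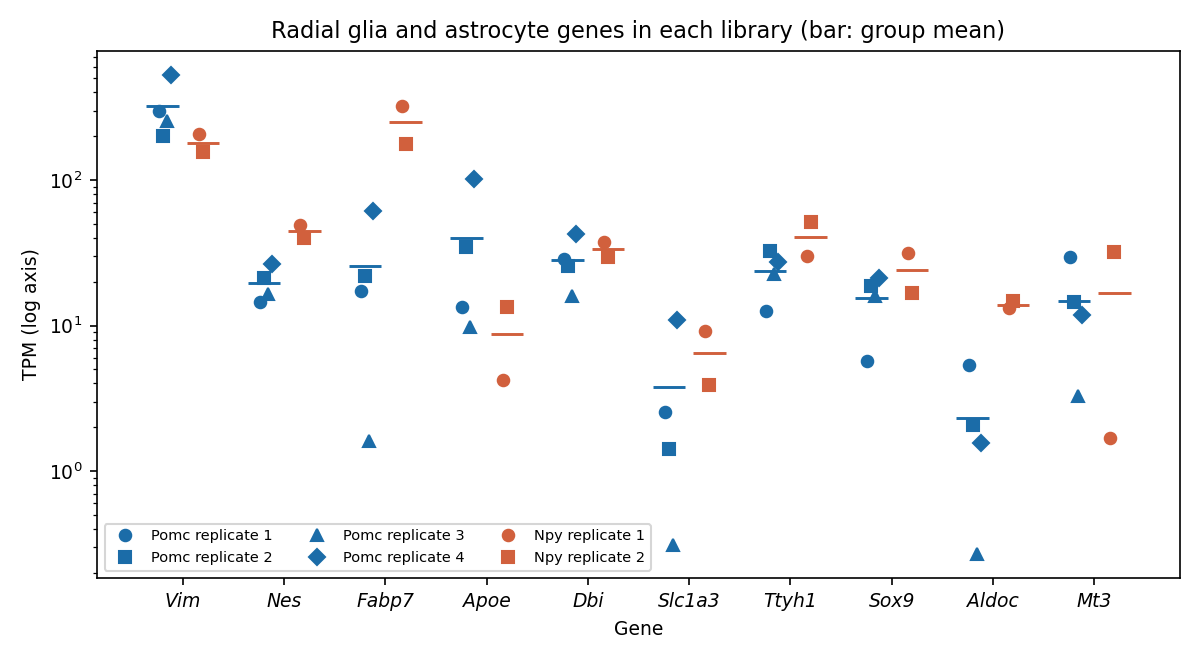
TPM (log axis) of the 10 radial glia and astrocyte genes in each of 4 Pomc (blue) and 2 Npy (orange) libraries, with a bar at each group mean. The 2 Npy points lie above all Pomc points for Nes, Fabp7 and Aldoc only, and Pomc replicate 4 is the highest Pomc library for 7 of the 10 genes.

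The promoter letters of the 3 genes whose groups did not overlap are shown beside that of Apoe, which had the opposite sign. They come from RefSeq windows (GRCm38.p6) of 250 bases before each annotated start, found for 9 of the 10 genes. Only the stretch before the GENCODE gene start is printed, 5′ to 3′ on the gene's strand. Capitals mark matches, on either strand, to TGGGAA, a core of sites for the Notch effector RBPJ, or to ACAAAG or ACAATG, cores of SOX sites. Fabp7 (strand +, chr10:57784673-57784880), Nes (strand +, chr3:87970843-87971077), Aldoc (strand +, chr11:78322823-78322967) and Apoe (strand -, chr7:19699189-19699438) read:
Fabp7: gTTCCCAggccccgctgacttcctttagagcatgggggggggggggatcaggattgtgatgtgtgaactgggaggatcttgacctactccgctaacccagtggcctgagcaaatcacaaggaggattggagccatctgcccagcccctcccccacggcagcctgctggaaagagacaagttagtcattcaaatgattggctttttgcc
Nes: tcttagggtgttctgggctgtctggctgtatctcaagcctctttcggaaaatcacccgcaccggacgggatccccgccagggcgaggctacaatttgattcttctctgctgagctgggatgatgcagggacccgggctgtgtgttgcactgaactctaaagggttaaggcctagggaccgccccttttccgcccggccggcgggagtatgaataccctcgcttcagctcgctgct
Aldoc: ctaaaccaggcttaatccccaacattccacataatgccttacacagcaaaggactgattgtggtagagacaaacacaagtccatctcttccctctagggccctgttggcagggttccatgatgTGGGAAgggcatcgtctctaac
Apoe: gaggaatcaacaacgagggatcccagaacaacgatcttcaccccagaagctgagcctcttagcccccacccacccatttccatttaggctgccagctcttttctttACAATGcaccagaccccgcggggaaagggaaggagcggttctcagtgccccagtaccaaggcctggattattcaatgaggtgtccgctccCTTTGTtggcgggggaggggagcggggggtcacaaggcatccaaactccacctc

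TGGGAA was found in the windows of Fabp7 and Aldoc and in no window of the other 7 genes, Nes among them. The matches lie at bases 249 to 244 before the start in Fabp7 and 127 to 122 in Aldoc. A further match in Aldoc lies 17 to 12 before a second annotated start, whose window lies within the gene and is not printed. Of all 32851 promoter windows of this length, 21.6% hold TGGGAA, so these matches do not set the genes apart. Both SOX cores were in the first window of Apoe alone, where 16.5% of all windows hold ACAAAG and 10.7% ACAATG. A metal response element core, TGCGCNC, was in both windows of Dbi and not in that of Mt3 (12.5% of all windows). These are letters in a window and not sites shown to be bound.

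The intermediate filament genes Vim and Nes did not share a direction. Vim (chromosome 2, 13573927 to 13582826, GRCm38) encodes vimentin, the filament protein of radial glia and of many mesenchymal cells. It reached 299, 201, 254 and 529.6 TPM in Pomc replicates 1 to 4 and 206 and 155 TPM in Npy neurons. The groups overlapped only through Pomc replicate 2, which lay below Npy replicate 1. The log2 fold change was 0.75 ± 0.34 (SE of the fit, limma adjusted p = 0.696). In every library Vim stood above 93.5 to 98.9% of all genes in the table. It was the most abundant of the 10 genes in each Pomc library and the second in each Npy library.

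Nes (chromosome 3, 87971078 to 87980451) encodes nestin, the filament protein of neural stem cells. Its values were 14.6, 21.3, 16.5 and 26.4 TPM in Pomc neurons against 49.0 and 40.05 TPM in Npy neurons. Every Pomc library lay below both Npy libraries, and the spread within each group was small, with a Pomc mean of 19.7 ± 5.28 TPM (SD, n = 4). The fitted difference was 2.24-fold higher in Npy (log2 -1.16 ± 0.36, limma adjusted p = 0.418). Other filament genes of glia or neurons did not pass either. Gfap, the filament gene of mature astrocytes, was listed at 0 in all 6 libraries, and the desmin gene Des at 0 in 5 of them. Ina, a neuronal filament gene, was abundant at 593 to 862 TPM against 507 and 458 TPM (log2 0.46 ± 0.20, adjusted p = 0.672).

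Among the lipid carriers, Fabp7 had the widest difference of the 10 genes and also the widest spread. Fabp7 (chromosome 10, 57784881 to 57788450) encodes brain lipid-binding protein, a fatty acid carrier of radial glia and a known target of Notch signalling. It stood at 17.4, 21.8, 1.61 and 61.6 TPM in Pomc neurons against 323 and 176 TPM in Npy neurons. The lowest Npy value was well above the highest Pomc value, that of replicate 4, while Pomc replicate 3 had almost none. The Pomc libraries differed among themselves by 38.4-fold. The SD of their log2(TPM + 1), 1.92, exceeded that of 97.5% of all tested genes. The fit gave 14.8-fold higher values in Npy (log2 -3.89 ± 1.00, limma adjusted p = 0.272). Leaving out Pomc replicate 3, the lowest library, gave -3.01, and leaving out replicate 4, the highest, -4.54. Neither passed (adjusted p = 0.0895 and 0.113). The two-sided exact permutation test over the 6 libraries gave 0.0667, as for Nes and Aldoc.

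Relatives of Fabp7 did not share its values. Fabp5, the epidermal form that neurons also make, stood at 474 to 921 TPM in Pomc neurons against 409 and 388 TPM in Npy neurons (log2 0.67 ± 0.25, limma adjusted p = 0.575). Fabp3, the heart form, stood at 108 to 261 TPM against 153 and 229 TPM. The ratio of Fabp7 to Fabp5 within a library, which does not depend on how libraries are scaled, was 0.00289 to 0.0923 in Pomc and 0.789 and 0.454 in Npy.

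Apoe (chromosome 7, 19696109 to 19699188) encodes apolipoprotein E, the lipoprotein of astrocytes and microglia. It reached 13.4, 34.8, 9.78 and 102 TPM in Pomc neurons against 4.21 and 13.3 TPM in Npy neurons. Pomc replicate 4 stood far above all other libraries, and Pomc replicate 3 lay between the Npy libraries. The log2 fold change was 1.67 ± 0.87 (limma adjusted p = 0.764) and 1.03 without Pomc replicate 4. Microglia genes were also high in that library. Over 11 microglia genes the summed level was 65.5 TPM in Pomc replicate 4, 8.30 to 9.97 TPM in the other Pomc libraries and 9.89 and 10.5 TPM in Npy neurons. Single genes of the list differed. P2ry12 stood at 22.7 TPM there and was listed at 0 in the other 5, and Csf1r at 13.1 TPM against at most 1.65. C1qb reached 2.71 and 8.33 TPM in Npy neurons against 0.68 TPM in Pomc replicate 4 (limma adjusted p = 0.375), and Aif1 was listed at 0 in all but Pomc replicate 3 (2.27 TPM). Tmem119, C1qa, Trem2 and Tyrobp were listed at 0 everywhere. Red blood cell genes summed to 88.8 TPM in the same library, 0 to 36.0 TPM in the other Pomc libraries and at most 1.31 TPM in Npy neurons. Their part in the Apoe values was not tested. The related lipoprotein genes Apoc1 and Apob were listed at 0 in all 6 libraries, and Apod reached at most 2.37 TPM.

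Dbi (chromosome 1, 120113280 to 120121078) encodes the acyl-CoA-binding protein, which also gives rise to peptides that act on GABA-A receptors. Its values were 28.8, 25.8, 15.9 and 42.7 TPM in Pomc neurons against 37.2 and 29.8 TPM in Npy neurons. Both Npy values lay inside the Pomc range. The fit gave a log2 fold change of -0.31 ± 0.41 (limma adjusted p = 0.902), the smallest of the 10 in size. The acyl-CoA-binding domain genes Acbd3, Acbd5 and Acbd6 overlapped between the groups as well, at 32.2 to 99.9 TPM over all 6 libraries.

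Genes of membrane proteins were low or moderate and overlapped. Slc1a3 (chromosome 15, 8634124 to 8710764) encodes GLAST, the glutamate transporter of radial glia and astrocytes. It stood at 2.55, 1.41, 0.309 and 11.0 TPM in Pomc neurons against 9.12 and 3.89 TPM in Npy neurons. Pomc replicate 4 was the highest of all 6, and the other Pomc libraries lay below both Npy libraries. On the log2 scale the fitted difference was -1.05 ± 0.92 (limma adjusted p = 0.855) and -1.65 ± 0.73 without Pomc replicate 4 (adjusted p = 0.635). A transcript model still to be tested by experiment, Gm37310, lies within the gene on the same strand. Slc1a2, which encodes the second astrocyte transporter GLT-1, stood at 16.4 to 41.3 TPM against 21.6 and 9.74 TPM. Its level was above that of Slc1a3 in every library.

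Ttyh1 (chromosome 7, 4119408 to 4136708) encodes a tweety family membrane protein that is abundant in neural stem cells. It reached 12.5, 32.3, 22.5 and 27.5 TPM in Pomc neurons against 30.1 and 51.5 TPM in Npy neurons. Pomc replicate 2 lay above Npy replicate 1, and the other 3 Pomc libraries lay below both Npy libraries. On the log2 scale the fitted difference was -0.79 ± 0.44 (limma adjusted p = 0.783). The annotation places 2 antisense genes over Ttyh1, and no source here states the strand setting of the counting, so reads of the partners cannot be told apart. Its relative Ttyh3, at 153 to 239 TPM against 168 and 203 TPM, had a fitted difference near 0 (log2 0.01 ± 0.21, adjusted p = 0.993).

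Sox9 (chromosome 11, 112782224 to 112787760) encodes the transcription factor that starts and keeps the glial programme of radial glia. Its values were 5.74, 18.8, 15.9 and 21.2 TPM in Pomc neurons against 31.5 and 16.6 TPM in Npy neurons. Npy replicate 1 was the highest library and Pomc replicate 1 the lowest, and Npy replicate 2 lay within the Pomc range. The fit gave a log2 fold change of -0.68 ± 0.58 (limma adjusted p = 0.853). Its closest relatives in the SOXE group did not share this overlap in each case. Sox10, the factor of the oligodendrocyte lineage, stood at 19.7 and 25.1 TPM in Npy neurons and at 0, 0, 0 and 0.444 TPM in Pomc neurons (log2 -4.41 ± 0.63, adjusted p = 0.021). Sox10 was the only one of 24 tested relatives of the 10 genes to pass, where 0.412% of all tested genes did. It reached 1 TPM, the minimum for testing, in the Npy libraries alone. It was tested and not called with a pseudocount of 0.1, with a replicate block, or without Pomc replicate 1, 2 or 3 (adjusted p = 0.0627 to 0.192). The replicate block compares only replicates 1 and 2 of each group. Sox10 could not be tested without either Npy library or with a minimum of 5 TPM in 3 libraries. Sox8 overlapped, at 0.763 to 12.1 TPM against 6.97 and 24.1 TPM.

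Aldoc and Mt3 belong to metabolism and metal binding. Aldoc (chromosome 11, 78322968 to 78327781) encodes the brain form of the glycolytic enzyme aldolase, a marker of astrocytes. It stood at 5.34, 2.09, 0.270 and 1.56 TPM in Pomc neurons against 13.1 and 14.7 TPM in Npy neurons. Both Npy libraries lay above all Pomc libraries and close to each other. The fit gave 5.27-fold higher values in Npy (log2 -2.40 ± 0.75, limma adjusted p = 0.418). The value depended on the pseudocount: it was -3.09 with 0.1 and -0.97 with 10 in place of 1 (adjusted p = 0.641 and 0.167). The muscle form Aldoa, which most cells use, stood at 141 to 207 TPM against 132 and 225 TPM (log2 -0.04 ± 0.26). Aldoc was 0.00147 to 0.0258 of Aldoa in the Pomc libraries and 0.0993 and 0.0651 in the Npy libraries.

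Mt3 (chromosome 8, 94152607 to 94154146) encodes the brain metallothionein, a small zinc- and copper-binding protein. It reached 29.8, 14.4, 3.27 and 11.8 TPM in Pomc neurons against 1.68 and 31.9 TPM in Npy neurons. The 2 Npy libraries were the lowest and the highest of the 6, an 18.9-fold difference. The log2 fold change was 0.44 ± 1.05 (limma adjusted p = 0.948), and its sign rested on the Npy library kept: it was -1.37 ± 0.955 without Npy replicate 1 and 2.24 ± 1.05 without Npy replicate 2. Mt1, a stress-inducible relative, stood at 6.80, 19.8, 0 and 21.5 TPM in Pomc neurons against 0 in each Npy library (adjusted p = 0.612). Mt2 reached at most 4.32 TPM, and Mt4 was listed at 0 throughout.

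**Figure D2:**
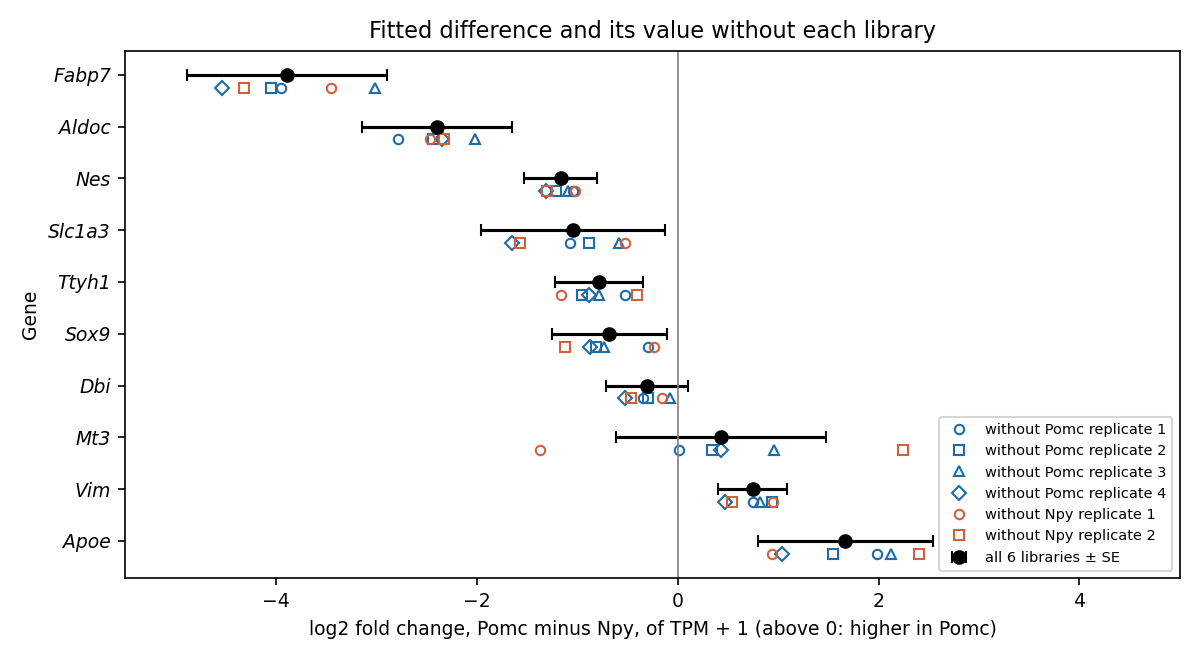
Fitted log2 fold change, Pomc minus Npy, of each radial glia and astrocyte gene on the log2(TPM + 1) scale, with the standard error (black), and the same value without each library (open symbols). Fabp7, Aldoc and Nes stay below 0 without any 1 library, while Mt3 lies on either side of 0, at -1.37 and 2.24, depending on which Npy library is left out.

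Vim and Fabp7 made up different parts of the set in the 2 groups. The 10 genes summed to 340.5 to 835 TPM in Pomc neurons against 704 and 533 TPM in Npy neurons, so the totals overlapped. Vim made up 53.8 to 74.7% of this sum in the Pomc libraries and 29.2 and 29.1% in the Npy libraries. Fabp7 made up 0.472 to 7.38% against 45.8 and 33.1%. The ratio of Fabp7 to Vim within a library was 0.0581, 0.108, 0.00631 and 0.116 in Pomc replicates 1 to 4 and 1.57 and 1.14 in Npy. The lower Npy ratio was 9.76 times the highest Pomc ratio. For Nes to Vim the ratios were 0.0490 to 0.106 against 0.238 and 0.258. These ratios pair genes picked for their values, so they are a description without a test.

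**Figure D3:**
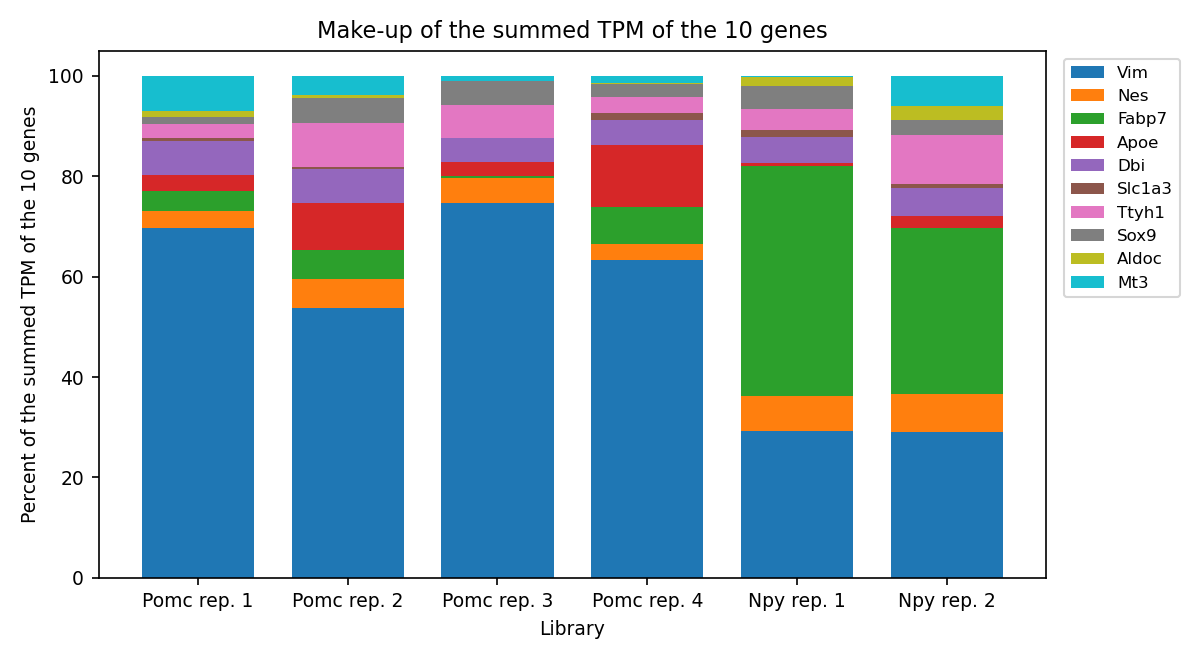
Percent of the summed TPM of the 10 genes taken by each gene, for each library. Vim (blue) takes 53.8 to 74.7% in the 4 Pomc libraries and 29.2 and 29.1% in the Npy libraries, where Fabp7 (green) takes 45.8 and 33.1%.

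Within the Pomc group the genes tended to be high or low in the same library. Pomc replicate 4 had the highest Pomc value in 7 of the 10 genes, while it was the highest Pomc library in 26.1% of all tested genes. Pomc replicate 3 had the lowest in 6 of 10, where it was the lowest in 15.6% of all genes, and it was the only library with values under 1 TPM (Slc1a3 and Aldoc). Mean log2(TPM + 1) over the 10 genes was 4.11, 4.28, 3.25 and 4.98 in Pomc replicates 1 to 4 and 4.79 and 5.005 in the Npy libraries. By this measure Pomc replicate 4 lay between the Npy libraries. That library also held the highest microglia and red blood cell sums given above, and their part in its values was not tested. Not all genes followed this order, since Aldoc and Mt3 were highest in Pomc replicate 1 and Ttyh1 in replicate 2. Across the 6 libraries, the 5 other genes whose log2(TPM + 1) was most correlated with this mean were Snord68, Amer2, Trappc2l, Mir5121 and Exosc3 (Pearson r = 0.94 to 0.97 over 6 libraries, among 5831 genes with a mean log2 value of at least 5). With so few libraries such values describe only this order of libraries.

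Other genes of radial glia were measured beside the 10. Of 24 listed, 22 were tested and 3 passed, and all 3 were higher in Pomc neurons: the SOXB1 factors Sox2 (log2 2.53 ± 0.20), Sox1 (2.40 ± 0.25) and Sox3 (3.17 ± 0.37), with limma adjusted p of 0.00168, 0.004 and 0.00695. Sox3 stood at 53.2 to 104.7 TPM in Pomc neurons against 5.78 and 9.06 TPM in Npy neurons. The count was 1 with a replicate block and 2 with 1 prior variance for all genes. Over all tested genes 0.289% were called higher in Pomc. Fabp7, Nes and Aldoc had the opposite sign. The Notch target Hes5 stood at 0.999 to 9.57 TPM against 14.0 and 28.9 TPM, without overlap (log2 -1.70 ± 0.78, adjusted p = 0.699), and Hes1 was low in all libraries, at 0 to 2.72 TPM. Ednrb, the endothelin receptor gene of radial glia and astrocytes, stood at 0 to 2.07 TPM against 14.4 and 6.20 TPM (log2 -2.59 ± 0.74, adjusted p = 0.357). Cdh2, which encodes N-cadherin, was high throughout at 327 to 450.4 TPM, and its groups overlapped. The median log2 fold change of the 22 genes was 0.11. Pax6 was listed at 0 in all libraries except Npy replicate 1 (1.79 TPM).

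Genes of more mature astrocytes and of tanycytes were mostly low, and none passed. Of 26 other astrocyte genes with a row, 17 were tested and 0 were called (median log2 0.31). At an unadjusted limma p under 0.05 there were 3, against 7.36% of all tested genes. Gfap, Gjb6, Gpr37l1 and Htra1 were listed at 0 in all 6 libraries, and Aqp4, S100b and Aldh1l1 reached at most 1.52 TPM. The matrix gene Bcan, used by astrocytes and oligodendrocyte precursors, stood at 1.25 to 4.54 TPM in Pomc neurons against 19.6 and 42.1 TPM in Npy neurons (log2 -2.98 ± 0.64, limma adjusted p = 0.145). Glul, which encodes glutamine synthetase, had the opposite sign, at 68.2 to 86.5 TPM against 51.9 and 54.3 TPM (log2 0.50 ± 0.21, adjusted p = 0.65). Cst3, the cystatin C gene, was the most abundant of the list on average, at 132 to 259 TPM against 151 and 101 TPM, and overlapped, as did the nuclear factor I genes Nfib (38.5 to 147 TPM against 68.6 and 13.6 TPM) and Nfix (13.8 to 68.0 TPM against 21.0 and 11.1 TPM). Of 12 tanycyte genes, 7 were tested and 0 called (1 at an unadjusted p under 0.05, Frzb). Frzb, which encodes a secreted Wnt antagonist, stood at 10.01 to 24.4 TPM against 0.958 and 5.94 TPM (log2 2.16 ± 0.67, limma adjusted p = 0.418), while Prdx6 and Gpr50 overlapped. The tanycyte factor gene Rax reached 16.4 TPM in Pomc replicate 2, was listed at 0 in Pomc replicate 4 and Npy replicate 2 and stood at 1.92 TPM in Npy replicate 1.

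Oligodendrocyte lineage and cell division genes stood higher in the Npy libraries, as Fabp7, Nes and Aldoc did. Of 10 oligodendrocyte lineage genes, 9 were tested and 6 were higher in Npy neurons by limma (Pdgfra, Olig1, Olig2, Sox10, Cspg4 and Gpr17). Over all tested genes 0.123% were called higher in Npy. Of these 6, 5 were under 1 TPM in every Pomc library and were tested only because both Npy libraries were high, so a called difference in them could go only one way. The count was 6 without Pomc replicate 4, 1 or 2 without Pomc replicate 1, 2 or 3, 1 with a pseudocount of 0.1 and 0 with a replicate block. Without either Npy library only Olig1 of the 6 could be tested, and it did not pass. None of the 6 could be tested with a minimum of 5 TPM in 3 libraries. The summed level of the list was 68.7 to 95.5 TPM in Pomc neurons against 294 and 262 TPM in Npy neurons. Olig2 and Cspg4 were listed at 0 in all 4 Pomc libraries. Of 24 cell division genes 0 passed, and their summed level was 155 to 256 TPM against 359.7 and 312 TPM. At an unadjusted limma p under 0.05, 9 were higher in Npy, against 3.28% of all tested genes. Fitted log2 fold changes were below 0 in 22 and above 0 in 2. The most abundant, Mcm7, Pcna and Mcm6, overlapped between the groups, and the Pcna mean was higher in Pomc (38.5 against 25.1 TPM). The part of oligodendrocyte lineage and dividing cells in the values of Fabp7, Nes and Aldoc was not tested. Within the Pomc group the oligodendrocyte genes did not follow the 10 genes: the 4 libraries had means of 1.35 to 1.60 on the log2(TPM + 1) scale, while those of the 10 genes ran from 3.25 to 4.98. Pan-neuronal genes were high throughout, at a mean of 8.20 to 8.71 in Pomc and 8.30 and 7.93 in Npy. None of 17 passed. At an unadjusted limma p under 0.05 there were 5, all higher in Pomc, as were 565 of all 13845 tested genes. Endothelial and pericyte genes summed to 1.31 to 13.0 TPM in Pomc neurons against 27.2 and 44.3 TPM in Npy neurons, and to 5.92 and 26.9 TPM in Npy neurons without Cspg4, which the list shares with the oligodendrocyte lineage, so that the groups then overlapped. Fibroblast and meningeal genes, which share Pdgfra, overlapped in their sums (45.7 to 198 TPM against 134 and 148 TPM). Their mean log2(TPM + 1) was 0.85 to 1.35 against 1.48 and 1.85, and 0.96 to 1.45 against 0.86 and 1.30 without Pdgfra. Ependymal genes summed to 3.01 to 16.8 TPM against 6.07 and 8.30 TPM. The calls among these lists were Cspg4 and Pdgfra.

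**Figure D4:**
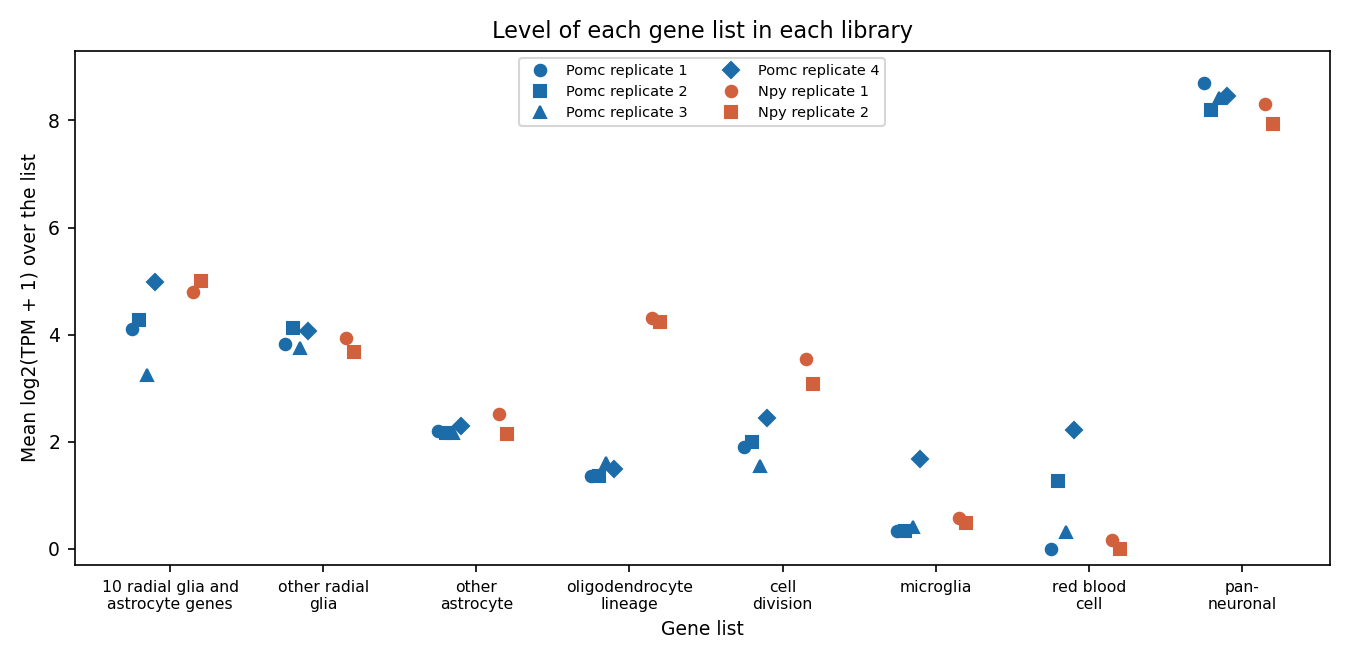
Mean log2(TPM + 1) of 8 gene lists in 4 Pomc (blue) and 2 Npy (orange) libraries. Of the lists drawn, the oligodendrocyte lineage and cell division lists have both Npy libraries above all Pomc libraries, while for the 10 radial glia and astrocyte genes Pomc replicate 4 (4.98) lies between the Npy libraries (4.79 and 5.005), and it is the highest library for microglia and red blood cell genes.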

How the data were processed

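The deposited values were taken as TPM, that is, scaled by the authors for gene length and library total, as judged from the values themselves: the header states no unit, the 6 columns used sum to 999932 to 999960, and short RNA genes lead. HISAT2, mm10 and edgeR 3.8 are named per the submitters' processing notes, with no role or order. Libraries were made from 1 ng of total RNA with a stranded kit, per the labels' protocols. Counts per library were not used, so precision rests on the spread between libraries, and an exact 0 may be a failed estimate.

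Rows of repeated symbols (4) were left out. Genes with at least 1 TPM in at least 2 of 6 libraries (13845) were fitted with limma 3.58.1 in R 4.3.3 on log2(TPM + 1), with a trend in the prior variance. A fold change on this scale understates that of low genes. The code was tested on simulated data. Coordinates are from GENCODE M21 and promoter letters from RefSeq. The members and lists were chosen with earlier results of these data known. Named genes were all 10 members, the relatives with a row, the 5 genes most correlated with the members' mean and, of each list, those called and then the highest by mean TPM up to 4. Hes1, Hes5, Ednrb, Aif1, Pax6, Bcan, Rax, Aqp4, S100b, Aldh1l1 and genes listed at 0 were added after their values were seen. Values of 2 listed genes are not reported here. Alternatives were the pseudocount, filter, prior variance, scaling, a replicate block, all 7 columns and leaving out each library.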

Additional observations from a re-analysis of the deposited data

Results flagged for a closer look

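In the genes reported here and in the library measures, the Pomc library farthest from the other 3 was compared with the range of the group. None of the 10 radial glia and astrocyte genes had a library standing apart. Of 79 genes and measures with any spread, 15 did, where chance gives about 1 in 20. Most of them are at 0 in 2 or 3 of the other Pomc libraries.

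In Pomc replicate 4 these were P2ry12 (22.7 TPM, the others at 0), Csf1r (13.1, next 0.263), C1qb (0.68), Mki67 (16.4, next 2.10), Hbb-y (9.60), Hba-a1 (7.47, next 0.258), Dynlrb2 (10.9), Des (0.786) and Sox10 (0.444). In Pomc replicate 1 they were Ttyh2 (6.22, next 1.36) and Ina (862, next 628). Pomc replicate 2 stood apart in Hbb-bt (11.0) and Pdgfra (0.484), and Pomc replicate 3 in Foxj1 (2.70) and Rfx4 (0.526). All values are TPM.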

How the results depend on the processing

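Under the 16 alternatives, 158 of 159 pairs of a radial glia or astrocyte gene and an alternative kept the direction and stayed short of the threshold. The exception was Mt3, which ran from -1.37 without Npy replicate 1 to 2.24 without Npy replicate 2. Slc1a3 was not tested with a minimum of 5 TPM in 3 libraries. The lowest adjusted p of any of the 10 genes was 0.0584, that of Fabp7 with the replicate block. Only replicates 1 and 2 occur in both groups used, so the difference in that fit rests on them alone. For Fabp7 this leaves out the lowest and the highest Pomc library. With both Npy libraries kept, the number of the 10 genes past the threshold was 0 throughout, also without any 1 Pomc library. The number at an unadjusted limma p under 0.05 was then 3 or 4, and 5 with all 7 columns. Those 7 include Npy replicate 3, which is computed from the other Npy columns. That fit therefore adds no measurement and understates the spread. Over all genes, 57 passed. The count was 37 with a pseudocount of 0.1, 33 with no filter, 205 with all 7 columns, and 22 to 69 when 1 library was left out. Scaling moved the median of all genes by less than 0.1. With a lone Npy library, that library is assumed to vary like the other group.

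By their titles, replicates 1 and 2 share a number across the groups, and no pairing is stated. Their deviations from the group means correlated at r = -0.04 and -0.03 over genes. With 2 Npy libraries the deviations of one mirror those of the other. These values therefore cannot decide whether replicates of the same number were prepared together. The fit with the replicate block, which compares replicates 1 and 2 alone, called 12 genes over all and 0 of the 10. Mean log2(TPM + 1) over the 10 genes, 4.15 in Pomc and 4.90 in Npy, was 5.004 and 5.47 with a pseudocount of 10, and 5.11 in Npy when scaled without short RNA genes.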
